A study of Mus musculus with 11 samples.

Results

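The insulin-like growth factor (IGF) axis was followed in sorted mouse skin fibroblasts through 10 genes, taken by symbol out of the 47643 in the table: the ligands Igf1 and Igf2, the receptors Igf1r and Igf2r, and the binding proteins Igfbp2, Igfbp3, Igfbp4, Igfbp5, Igfbp6 and Igfbp7. All 10 were found, and all 10 passed the filter for testing (1 RPKM or more in 2 or more libraries), as did 11979 genes in all. Igfbp2 was above 1 RPKM in all 6 NS libraries but in 1 WT 5dw and 1 Act 5dw library only. RPKM are reads corrected for gene length and sequencing depth.

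Fibroblasts came from normal back skin (NS) and from full-thickness excisional wounds 5 days after injury (5dw), each of wild-type (WT) mice and of their K14-Act littermates (Act), which overexpress the activin subunit INHBA under the keratin 14 promoter, that is, in keratinocytes. All mice were F1 animals of mixed CD-1 and C57Bl/6 background (50% each), aged 9 to 12 weeks, and each library pooled RNA from the sorted cells of 3 animals. Cells were sorted as live, CD140a+ (the receptor Pdgfra) and CD45-, and cells with CD3, CD11b or F4/80 were gated out. WT NS, Act NS and WT 5dw had 3 libraries each. Act 5dw had 2, numbered 1 and 3, since library 2 failed the authors' quality control.

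IGF1 and IGF2 act through the tyrosine kinase receptor IGF1R, which signals through insulin receptor substrates to PI3K and AKT. IGF2R, the mannose 6-phosphate receptor, takes up IGF2 and lysosomal enzymes without a kinase of its own. The binding proteins hold secreted IGFs in the matrix and the circulation and limit their access to IGF1R until proteases cleave them. In skin, dermal fibroblasts are a source of IGF1, and keratinocytes respond to it.

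Mapped totals worked out from the values were 18649321 to 39702138 per library. RNA input was 100 ng for NS and 200 ng for 5dw, and its part in a wounding effect cannot be told apart from that of wounding. The sum of 14 fibroblast markers was 14358 to 20123 RPKM in NS and 24793 to 28060 RPKM in 5dw, led by Dcn in NS and by Col1a1 in 5dw. Of the 14, 3 were called higher and 7 lower in WT wounds, and 3 and 5 in Act wounds. Of all genes tested, 9.45% were called higher and 48.8% lower in WT, and 9.04% and 36.5% in Act. Pdgfra, the sorted antigen, was 49.8 to 65.3 RPKM in NS and 29.6 to 37.3 RPKM in 5dw. The sum of 14 keratinocyte markers was 1105 to 4427 RPKM in NS and 178 to 1437 RPKM in 5dw, so it moved with wounding. Wounded libraries had lower RPKM for most genes: the median log2 fold change (log2FC) over all 11979 genes was -0.40 in WT and -0.31 in Act. Median-ratio scaling, which sets these medians to 0.00, was therefore run beside the deposited scale. In bulk libraries, fewer cells of a type and less RNA per cell cannot be told apart.

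In NS, binding proteins had the highest means of the members, and Igf2 had the lowest. Mean RPKM in WT NS ran from 774 for Igfbp6 through 513 for Igfbp5, 334 for Igfbp7, 248 for Igfbp3, 79.6 for Igfbp4 and 64.1 for Igfbp2 to 17.8 for Igf1, 13.4 for Igf2r, 4.96 for Igf1r and 1.64 for Igf2. The library ranges of Igfbp5 and Igfbp7, of Igfbp7 and Igfbp3, of Igfbp4 and Igfbp2, and of Igf1 and Igf2r overlapped, so these neighbours did not differ beyond their spread, while the other neighbours did not overlap. In WT 5dw the order was Igfbp7 (365), Igfbp6 (244), Igfbp4 (87.2), Igfbp5 (68.5), Igfbp3 (67.5), Igf2r (25.1), Igf1 (16.8), Igf1r (3.35), Igf2 (1.96) and Igfbp2 (0.746), with overlap between Igfbp4 and Igfbp5 and between Igfbp5 and Igfbp3. Igfbp2 thus went from the sixth place to the last. The order in Act was the same except between neighbours whose ranges overlapped.

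**Figure D1:**
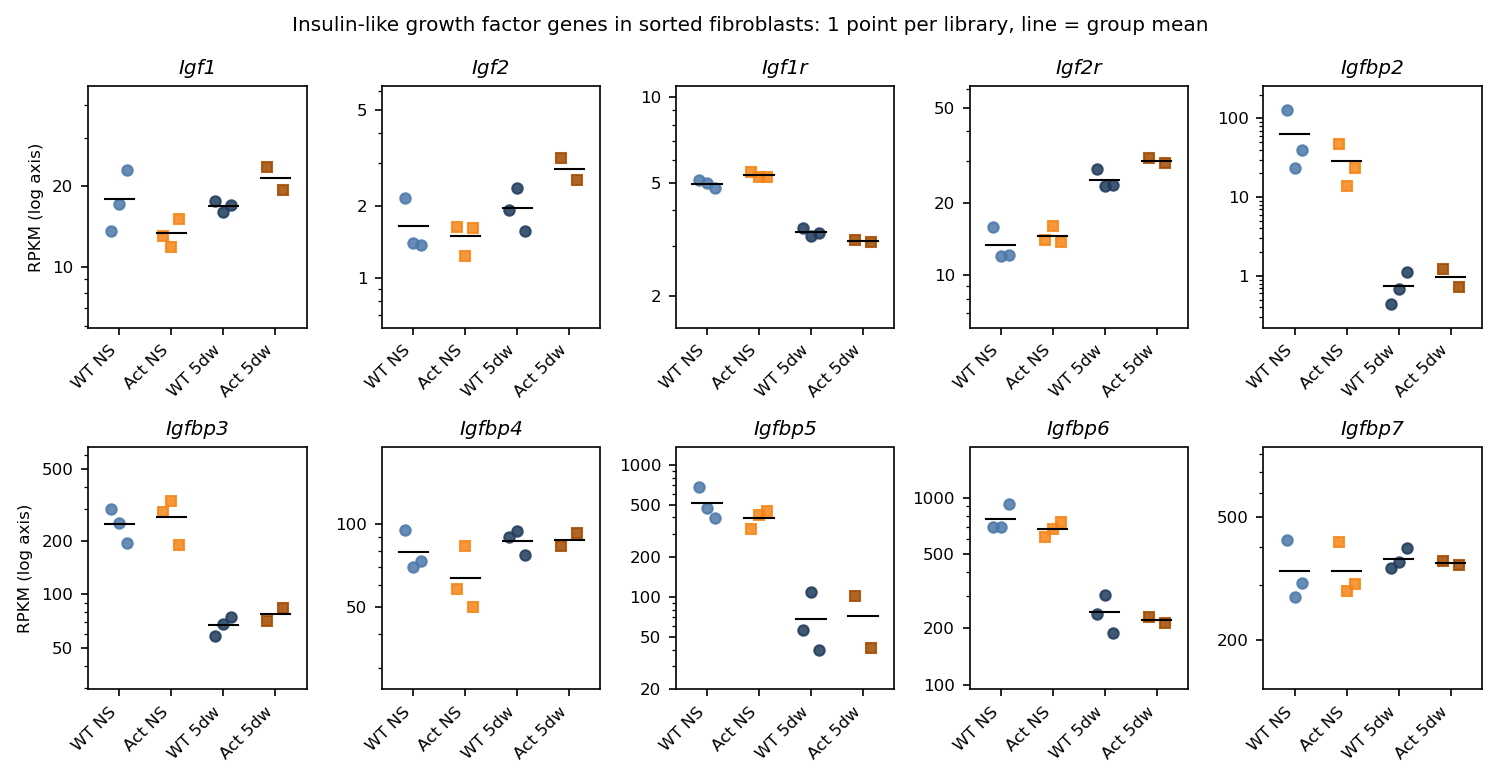
RPKM (log axis) of the 10 genes in each of the 11 libraries by group, with the group mean as a line. Igfbp2, Igfbp3, Igfbp5 and Igfbp6 were lower in every 5dw library than in any NS library of either genotype, as was Igf1r on this scale (4.77 to 5.47 in NS, 3.08 to 3.48 in 5dw), and Igf2r was higher in every 5dw library.

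The first question was which members differ between wound and normal skin fibroblasts. In WT, Igf2r rose and Igf1r, Igfbp2, Igfbp3, Igfbp5 and Igfbp6 fell, whereas Igf1, Igf2, Igfbp4 and Igfbp7 did not pass the test (limma-trend on log2(RPKM + 0.5), adjusted p under 0.05 over all genes). That is 1 member higher and 5 lower of 10, where 9.45% of all genes tested were called higher and 48.8% lower. In Act the same 6 members were called in the same directions and Igf1 and Igf2 were also called higher, making 3 higher and 5 lower, beside 9.04% and 36.5% of all genes. On the deposited scale, the share of lower members thus lay near that of all genes in WT and above it in Act. The median log2FC of the members (-0.28 in WT, -0.29 in Act) lay close to that of all genes, but the members were spread widely around it. In WT, 0.0501%, 1.04%, 4.04% and 5.03% of genes tested had a lower log2FC than Igfbp2, Igfbp5, Igfbp3 and Igfbp6. For Igf2r this was 94.8%. With median-ratio scaling, 4 members were called higher and 4 lower in WT (22.4% and 22.2% of all genes), and 4 and 5 in Act (19.9% and 20.8%), with the fall of Igf1r lost in WT.

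**Figure D2:**
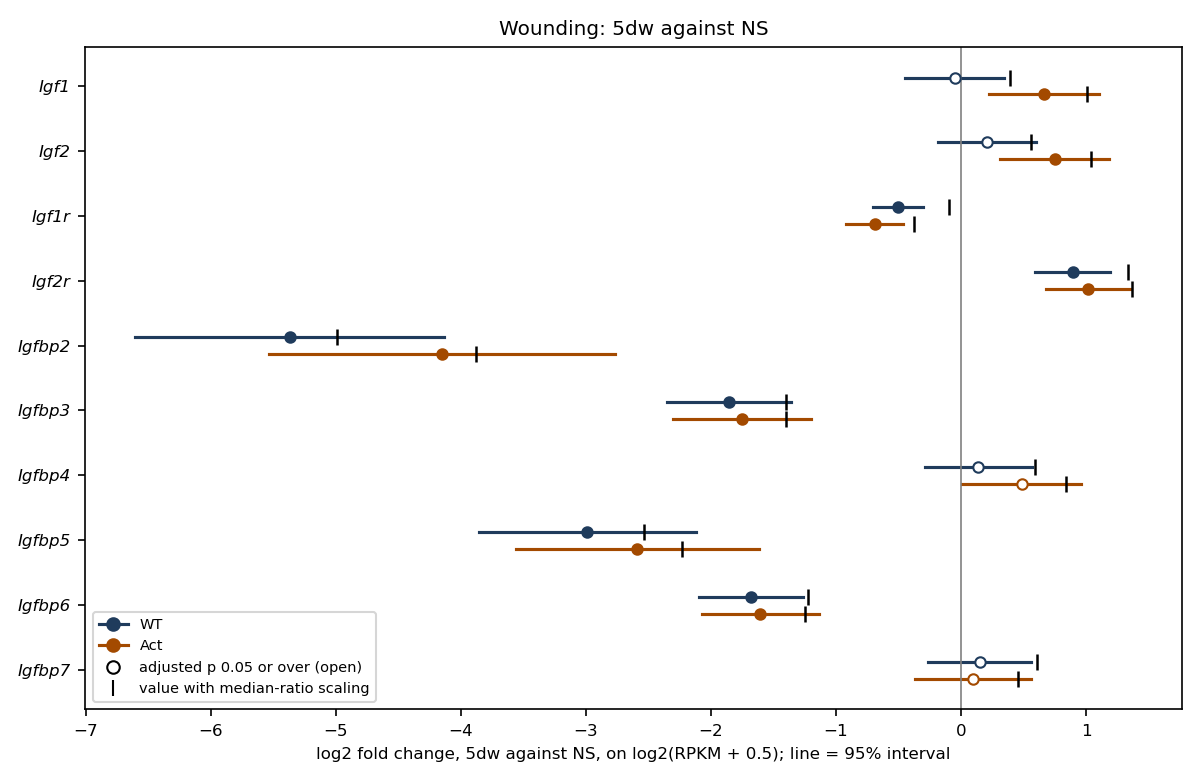
Log2FC of 5dw against NS for each member in WT and Act, with 95% intervals, filled where adjusted p was under 0.05, and with the value under median-ratio scaling as a tick. Igfbp2, Igfbp3, Igfbp5 and Igfbp6 lay between -1.60 and -5.37 and stayed below 0 under both scalings, Igf2r stayed above 0, and the tick for Igf1r in WT lay at -0.10.

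The 4 binding proteins that fell are shown with the 2 that did not by the 100 bases before their RefSeq start (GRCm38.p6, on the strand of the gene, 5′ to 3′), so that their start regions can be compared. Capitals mark the TATA motif TATANA, the GC box GGGCGG and the box CCAAT on either strand.
Igfbp2 (fell), chr1:72824380-72824479, + strand: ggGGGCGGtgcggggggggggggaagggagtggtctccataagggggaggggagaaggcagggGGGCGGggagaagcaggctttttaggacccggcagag
Igfbp3 (fell), chr11:7213924-7214023, - strand: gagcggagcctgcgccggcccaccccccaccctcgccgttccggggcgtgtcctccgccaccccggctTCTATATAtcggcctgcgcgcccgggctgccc
Igfbp5 (fell), chr1:72874866-72874965, - strand: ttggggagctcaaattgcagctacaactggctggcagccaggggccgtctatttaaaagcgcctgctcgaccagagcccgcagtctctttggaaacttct
Igfbp6 (fell), chr15:102144086-102144185, + strand: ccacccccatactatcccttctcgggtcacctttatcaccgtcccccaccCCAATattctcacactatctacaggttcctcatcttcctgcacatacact
Igfbp4 (not called), chr11:99041144-99041243, + strand: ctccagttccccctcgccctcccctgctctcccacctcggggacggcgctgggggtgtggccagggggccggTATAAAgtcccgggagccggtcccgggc
Igfbp7 (not called), chr5:77408046-77408145, - strand: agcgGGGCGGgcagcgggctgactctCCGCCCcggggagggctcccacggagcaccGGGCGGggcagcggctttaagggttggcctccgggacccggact

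TATANA was found in Igfbp3, which fell, with TATATA starting 30 bases before the RefSeq start, and in Igfbp4, which was not called, with TATAAA starting 28 bases before it, and 9.48% of all 32851 promoter windows of this length hold it. GC boxes were found in Igfbp2 and Igfbp7, as in 24.7% of all windows, and CCAAT in Igfbp6, as in 18.9%. None of these motifs was shared by all 4 that fell. The AP-1 motif TGANTCA (2.73% of windows) and CAGAC (18.8%), a short SMAD-type motif, were found in none of the 6 windows, and another RefSeq start of Igfbp2 (window chr1:72825287-72825386) held TGANTCA. A match is a run of letters, and the factors themselves were not measured here. GC content of the 6 windows was 51.0% in Igfbp6, 55.0% in Igfbp5, 71.0% in Igfbp2, 75.0% in Igfbp4 and 77.0% in both Igfbp3 and Igfbp7. Igfbp2 and Igfbp5 are neighbours on chromosome 1, at 72824503 to 72852474 (+ strand) and 72857932 to 72874884 (- strand) in GENCODE M21, whose starts can differ from those of RefSeq.

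Igfbp2, which encodes a binding protein with a preference for IGF2, had the largest change of the 10 genes in both genotypes. It was 129, 23.7 and 39.9 RPKM in the WT NS libraries numbered 1, 2 and 3, and 0.436, 0.685 and 1.12 RPKM in those of WT 5dw. In Act it was 47.7, 14.0 and 23.6 RPKM in NS and 1.21 and 0.718 RPKM in 5dw. Every NS library was more than 10 times above every 5dw library, although the NS libraries differed among themselves, with that of WT numbered 1 far above the rest. The log2FC was -5.37 ± 0.56 (SE) in WT and -4.15 ± 0.63 in Act (limma adjusted p = 3.43e-05 and 0.000503), and without the WT NS library numbered 1 it was -4.69 in WT. With a pseudocount of 0.1 it was -5.96 and -4.60, and with 1 it was -4.88 and -3.75. In WT, 0.0501% of the genes tested had a lower log2FC. The 5dw values rest on 32 to 80 reads per library, against 624 to 5998 in NS. In the same order, the keratinocyte sum was 1105, 1954 and 2096 RPKM in WT NS and 178, 351 and 1437 RPKM in WT 5dw, and 1176, 2871 and 4427 RPKM in Act NS and 383 and 454 RPKM in Act 5dw. Its part in the fall of Igfbp2 was not tested.

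Igfbp5, a binding protein that attaches to matrix, was the next most changed. It was 676, 468 and 396 RPKM in WT NS and 55.8, 110 and 39.9 RPKM in WT 5dw. In Act it was 328, 415 and 446 RPKM in NS and 103 and 41.0 RPKM in 5dw. The groups did not overlap, and in 5dw the libraries fell into a wide range, with 1 library of each genotype near 100 RPKM. The mean was 7.50-fold lower in WT wounds and 5.52-fold lower in Act wounds, with log2FC of -2.99 ± 0.39 and -2.59 ± 0.44 (limma adjusted p = 0.000145 and 0.00102). In Act the size rests on the 2 wound libraries, with log2FC of -3.24 without that numbered 1 and -1.93 without that numbered 3, both called.

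Igfbp3, the main carrier of IGFs in serum, was 300, 250 and 195 RPKM in WT NS and 58.8, 68.4 and 75.1 RPKM in WT 5dw. In Act it was 289, 331 and 188 RPKM in NS and 70.9 and 84.4 RPKM in 5dw. Levels in 5dw were close to each other and all below the lowest NS library. The log2FC was -1.86 ± 0.22 in WT and -1.75 ± 0.25 in Act (limma adjusted p = 8.57e-05 and 0.000368). Igfbp6, whose protein binds IGF2 much more tightly than IGF1, was the most abundant member in NS, with 700, 693 and 928 RPKM in WT and 615, 682 and 746 RPKM in Act. It was 239, 303 and 189 RPKM in WT 5dw and 232 and 215 RPKM in Act 5dw, again without overlap. Its log2FC was -1.68 ± 0.19 in WT and -1.60 ± 0.21 in Act (limma adjusted p = 5.59e-05 and 0.000217). The falls of Igfbp2, Igfbp3, Igfbp5 and Igfbp6 passed the test under each alternative that was run, in both genotypes.

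Igfbp4, an inhibitory binding protein cleaved by pappalysin, was 94.9, 70.1 and 73.7 RPKM in WT NS and 89.8, 94.6 and 77.1 RPKM in WT 5dw. Values in Act were 58.0, 83.6 and 50.2 RPKM in NS and 83.1 and 92.6 RPKM in 5dw. The ranges overlapped in both genotypes, and Igfbp4 did not pass the test, with log2FC of 0.14 (95% interval -0.29 to 0.57) in WT and 0.49 (0.01 to 0.96, limma adjusted p = 0.088) in Act. Without the Act NS library numbered 2, the highest of its group, log2FC in Act was 0.70 and passed (limma adjusted p = 0.0163, range over the alternatives 0.0112 to 0.35). With median-ratio scaling it was 0.59 in WT and 0.84 in Act, both called (limma adjusted p = 0.0299 and 0.0112), and the range over the alternatives in WT was 0.0299 to 0.844.

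Igfbp7, a member of low affinity for IGFs that also binds insulin, was 421, 275 and 306 RPKM in WT NS and 341, 358 and 396 RPKM in WT 5dw. The Act libraries were at 416, 289 and 302 RPKM in NS and 361 and 348 RPKM in 5dw. In both genotypes the NS library numbered 1 was above all 5dw libraries, and the other NS libraries were below all of them. The log2FC was 0.15 (95% interval -0.27 to 0.56) in WT and 0.10 (-0.36 to 0.56) in Act, and neither passed. In WT it passed with median-ratio scaling (0.61, limma adjusted p = 0.0463) and without both NS libraries numbered 1 (0.33, limma adjusted p = 0.0437), with a range over the alternatives from 0.0437 to 0.931. Those 2 libraries stood apart from the other NS libraries on the second principal component.

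The make-up of the binding protein transcripts was therefore different in wounds. The summed RPKM of the 6 genes was 1754 to 2321 in NS (median 1797) and 778 to 935 in 5dw (median 785). Igfbp7 made up 15.5 to 23.7% of this sum in NS and 38.3 to 50.9% in 5dw. Igfbp4 made up 2.86 to 4.61% and 9.77 to 11.8%. The share of Igfbp5 went the other way, from 18.7 to 29.1% in NS to 5.13 to 12.1% in 5dw, and that of Igfbp6 was 30.2 to 47.9% in NS and 24.3 to 32.4% in 5dw, which overlapped. Shares within a library do not depend on a single scaling factor per library, though quantile normalization can change them. With Igfbp7 left out of the sum, Igfbp6 made up 47.0% on average in NS and 50.5% in 5dw, and Igfbp4 4.57% and 19.03%. Per RPKM of ligand transcript (Igf1 plus Igf2), the 6 genes had 79.9 to 148 RPKM in NS and 31.9 to 50.9 RPKM in 5dw, without overlap.

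**Figure D3:**
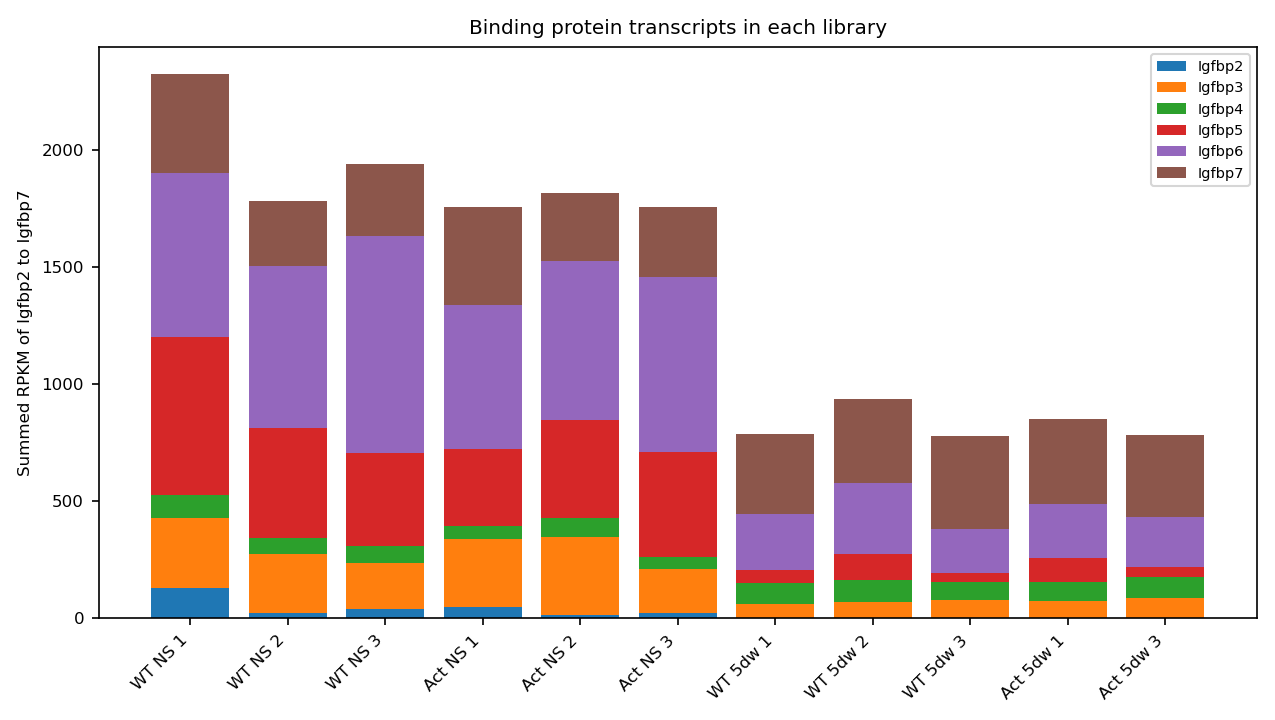
Summed RPKM of the 6 binding protein genes in each library, 1 bar per library from 0, stacked by gene. The 6 NS bars reach 1754 to 2321 RPKM and the 5 bars of 5dw reach 778 to 935 RPKM, with Igfbp7 between 275 and 421 RPKM in every bar.

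Among the receptors, Igf1r was 5.09, 5.01 and 4.77 RPKM in WT NS and 3.48, 3.24 and 3.33 RPKM in WT 5dw. Act libraries had 5.47, 5.22 and 5.26 RPKM in NS and 3.13 and 3.08 RPKM in 5dw. Replicates were close together, and the 5dw libraries lay below all NS libraries. The log2FC of -0.50 ± 0.09 in WT and -0.69 ± 0.10 in Act passed (limma adjusted p = 0.00102 and 0.000476), but this call rests on the scale. With median-ratio scaling, the log2FC was -0.10 in WT (limma adjusted p = 0.466) and -0.37 in Act (0.0245), and with quantile normalization -0.05 (0.733) and -0.31 (0.0708). Over the alternatives adjusted p ran from 0.000548 to 0.733 in WT and from 0.000149 to 0.0708 in Act. In WT, 41.7% of all genes tested had a lower log2FC than Igf1r.

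Igf2r was 15.9, 12.1 and 12.1 RPKM in WT NS and 27.9, 23.7 and 23.8 RPKM in WT 5dw. Values in Act were 14.0, 16.2 and 13.8 RPKM in NS and 30.9 and 29.4 RPKM in 5dw. All 5dw libraries were above all NS libraries, with log2FC of 0.89 ± 0.14 in WT and 1.02 ± 0.15 in Act (limma adjusted p = 0.000357 and 0.000479). It was called higher under each alternative that was run. The ratio of Igf2r to Igf1r RPKM within a library, which a single scaling factor per library does not change, was 2.41 to 3.12 in NS and 7.14 to 9.88 in 5dw. Airn, an antisense transcript over Igf2r, reached 4.77 RPKM, with strand use in the counting not given in the sources used here.

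Among the ligands, Igf1 was 13.6, 17.0 and 22.9 RPKM in WT NS and 17.6, 16.0 and 16.9 RPKM in WT 5dw. The Act libraries were at 13.0, 11.8 and 15.1 RPKM in NS and 23.5 and 19.2 RPKM in 5dw. WT wounds lay inside the WT NS range, while both Act wound libraries lay above all Act NS libraries. The log2FC was -0.05 (95% interval -0.44 to 0.34) in WT and turned to 0.39 with median-ratio scaling and 0.23 with quantile normalization, none of which passed. In Act it was 0.66 ± 0.20 (limma adjusted p = 0.0191). The Act call was lost without the Act 5dw library numbered 1 (0.52, limma adjusted p = 0.14) and without the Act NS library numbered 2 (0.59, limma adjusted p = 0.0612), with a range over the alternatives from 0.00153 to 0.14.

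Igf2, an imprinted gene expressed from the paternal allele, was the lowest member in NS. It was 2.15, 1.40 and 1.37 RPKM in WT NS and 1.91, 2.38 and 1.58 RPKM in WT 5dw. Act libraries had 1.64, 1.24 and 1.62 RPKM in NS and 3.15 and 2.56 RPKM in 5dw. These values rest on 149 to 528 reads per library. WT ranges overlapped (log2FC 0.21, 95% interval -0.19 to 0.60), whereas Act wounds were above Act NS (log2FC 0.75 ± 0.20, limma adjusted p = 0.0106). The Act call was lost without the Act 5dw library numbered 1 (0.62, limma adjusted p = 0.0892, range over the alternatives 0.00213 to 0.0892). In WT it passed with median-ratio scaling (0.56, limma adjusted p = 0.0328) and with quantile normalization (0.67, limma adjusted p = 0.0186), with a range over the alternatives from 0.0186 to 0.733. The Igf2 values are uncertain in a further respect, because 63.1% of the 31-base sequences of Igf2 also occur in other genes. The gene sharing most is Gm49394, a gene model on the same strand that has no row in the table.

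The second question was whether the members differ between Act and WT. None of the 10 passed the test in NS, in 5dw or in the interaction of wounding and genotype with limma-trend, nor with limma-voom on recovered reads. Of all genes tested, 0.0167% passed in NS, 0.0334% in 5dw and 0% in the interaction. Before adjustment, 824 of the 11979 genes had p under 0.05 in NS, 386 in 5dw and 400 in the interaction (limma-trend). At an unadjusted p under 0.05 there were 0 members in NS, 1 in 5dw (Igf2, log2FC 0.46, limma adjusted p = 1.00) and 1 in the interaction (Igf1, 0.71, limma adjusted p = 0.999). Igf1 was lower in Act NS than in WT NS, with log2FC of -0.39 (95% interval -0.78 to 0.01), and higher in Act 5dw than in WT 5dw, with 0.33 (-0.11 to 0.77), and neither passed. Both Act 5dw libraries were above all 3 of WT 5dw for Igf1, and the same was true of Igf2 and Igf2r. The share of all genes that separate in this way was not worked out, so nothing is concluded from it. The difference in the wounding effect on Igf1 had a 95% interval of 0.13 to 1.30 before adjustment, which does not hold 0, but it did not pass after adjustment over all genes, and the Act call and the missing WT call above are therefore not shown to differ.

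The intervals show how much the 11 libraries allow. For Igf1r the 95% interval of Act against WT was -0.11 to 0.30 in NS and -0.32 to 0.13 in 5dw, and for Igf2r it was -0.16 to 0.44 and -0.07 to 0.60. For Igfbp3 it was -0.39 to 0.59 in NS and -0.35 to 0.76 in 5dw, for Igfbp6 -0.59 to 0.24 and -0.57 to 0.36, and for Igfbp7 -0.40 to 0.43 and -0.50 to 0.43. Igfbp2 and Igfbp5 had wide ones, from -2.21 to 0.27 and from -1.22 to 0.52 in NS, so a 2-fold lower level in Act NS lay inside both. When 1 library was left out, the log2FC in NS ran from -1.49 to -0.29 for Igfbp2 and from -0.52 to -0.13 for Igfbp5. Inhba, the mouse gene of the subunit that the transgene encodes, was 3.40 to 6.93 RPKM in WT NS and 36.3 to 91.1 RPKM in Act NS, and 15.8 to 24.0 RPKM in WT 5dw and 26.2 and 50.2 RPKM in Act 5dw. Whether reads of the transgene are counted in it was not tested.

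**Figure D4:**
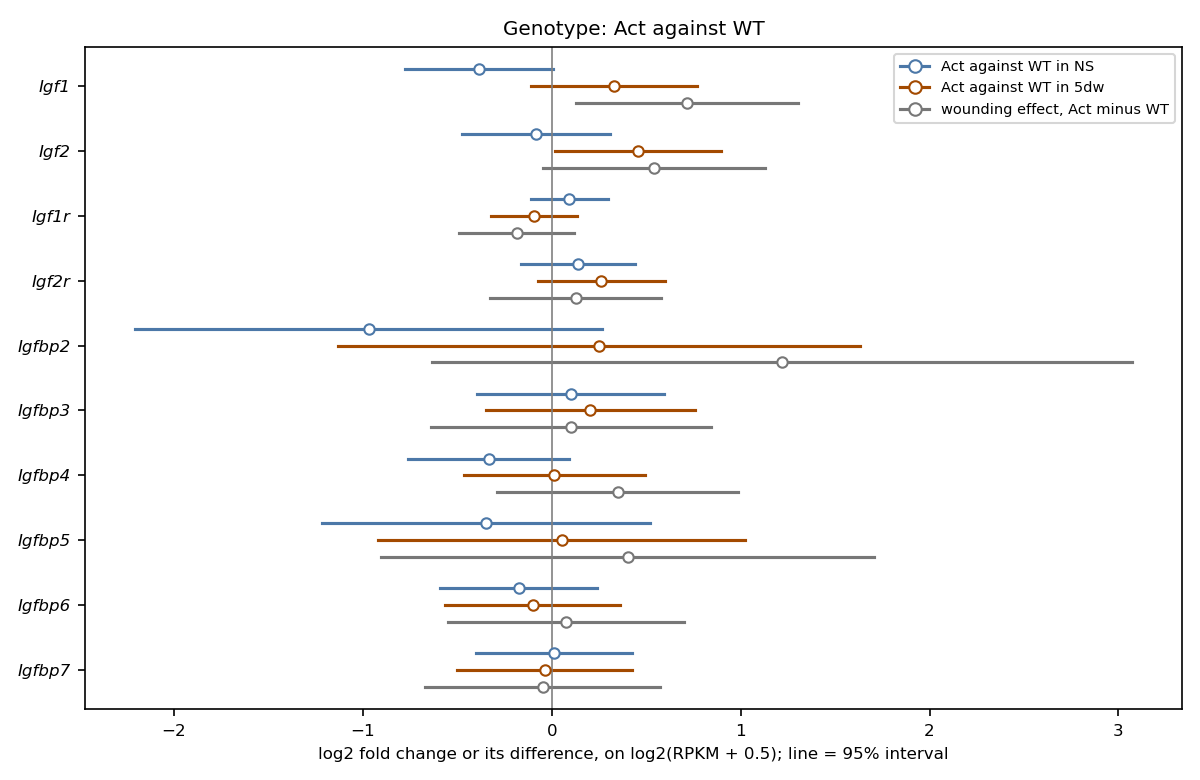
Log2FC of Act against WT in NS and in 5dw, and the difference between the wounding effects (Act minus WT), with 95% intervals, for each member. All points are open because no adjusted p was under 0.05, and the widest intervals are those of Igfbp2.

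The other genes of the pathway were described from a list of 55, of which 42 were tested. Of these, 7 were higher and 27 lower in WT wounds, and 5 and 23 in Act wounds, where 9.45% and 48.8% of all genes tested were called higher and lower in WT and 9.04% and 36.5% in Act. The tested genes and those called higher include Pdk1, which is no gene of the PI3K and AKT branch, as described below. With median-ratio scaling the counts were 10 higher and 14 lower in WT (22.4% and 22.2% of all genes) and 9 and 15 in Act (19.9% and 20.8%). The median log2FC of the 42 was -0.57 in WT and -0.47 in Act, beside -0.40 and -0.31 over all genes. None passed between genotypes or in the interaction with limma-trend or with limma-voom. With limma-trend, 1 gene each in NS, 5dw and the interaction had an unadjusted p under 0.05. Among all 11979 genes these counts were 824, 386 and 400.

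Among 8 tested proteases of binding proteins and their inhibitors, 2 were higher and 3 lower in each genotype, beside 9.45% of all genes higher and 48.8% lower in WT and 9.04% and 36.5% in Act. With median-ratio scaling, 3 were higher and 3 lower in WT (22.4% and 22.2% of all genes), and 3 and 2 in Act (19.9% and 20.8%). Adam12, a metalloproteinase that cleaves IGFBP3 and IGFBP5, was 3.54 to 9.19 RPKM in NS and 37.8 to 48.0 RPKM in 5dw, with log2FC of 3.08 ± 0.26 in WT and 2.80 ± 0.29 in Act (limma adjusted p = 9.12e-06 and 5.01e-05). Pappa2, a pappalysin that cleaves the same pair of binding proteins, went the opposite way, from 4.96 to 11.7 RPKM in NS to 0.291 to 0.729 RPKM in 5dw. Every 5dw library was below 1 RPKM, so Pappa2 passed the filter through NS alone. Its log2FC was -2.85 ± 0.23 in WT and -3.12 ± 0.26 in Act (limma adjusted p = 7.15e-06 and 1.43e-05). At this level the pseudocount of 0.5 shrinks the change, which was -3.68 and -3.80 with a pseudocount of 0.1 and -2.30 and -2.62 with 1, and the fold of the mean RPKM was 16.2 and 16.1. Htra1, a secreted serine protease, was lower with log2FC of -1.09 in WT and -0.89 in Act. Pappa, which cleaves IGFBP4, was at 0.393 to 0.786 RPKM in 5dw and passed the filter through NS alone. Its log2FC was -0.72 in WT and -0.62 in Act on this scale. With a pseudocount of 0.1 it was -1.11 and -0.88, and with 1 it was -0.51 and -0.46. The call of Pappa was lost in Act with median-ratio scaling and in both genotypes with quantile normalization. It was also lost in Act without the Act 5dw library numbered 1 (-0.44, limma adjusted p = 0.104, range over the alternatives up to 0.436). Adam9 rose by 0.47 in WT and 0.53 in Act, calls that were lost in WT without the WT NS library numbered 1 or any 1 of the WT 5dw libraries (log2FC 0.37 to 0.49). In Act they were lost without the Act NS library numbered 1 or 3, either Act 5dw library or the WT 5dw library numbered 3 (0.37 to 0.53), and also with array weights (0.31), with only the groups compared (0.53) and with no filter on low values (0.53). Adamts1, at 190 to 436 RPKM the most abundant of the group, had 0.37 and 0.59 and was not called on the deposited scale. It was called higher in both genotypes with median-ratio scaling (0.83 and 0.95, limma adjusted p = 0.00494 and 0.00509), and in Act also with quantile normalization, with the replicate block and without the Act NS library numbered 2.

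Of 2 tested genes around the ligands, both fell in each genotype, where 48.8% of all genes were lower in WT and 36.5% in Act. Kazald1, which encodes a secreted protein with an IGFBP-type domain, was 6.22 to 14.7 RPKM in NS and 1.39 to 1.83 RPKM in 5dw (log2FC -2.34 in WT, -2.13 in Act). Ghr, the growth hormone receptor, which drives Igf1 transcription in liver, was 16.1 to 23.6 RPKM in NS and 7.04 to 10.0 RPKM in 5dw (log2FC -1.27 and -1.17). Igfbp1, Igfals, Igfbpl1, Ins1 and Ins2 were below the filter. Among 8 tested receptors and adaptors, 1 was higher in each genotype, beside 9.45% of all genes in WT and 9.04% in Act, and 6 were lower in WT and 5 in Act, beside 48.8% and 36.5%. With median-ratio scaling 1 was higher and 2 lower in WT (22.4% and 22.2% of all genes), and 1 and 3 in Act (19.9% and 20.8%). Grb10, an adaptor that dampens insulin and IGF1 receptor signalling, was the higher gene on the deposited scale, with 21.2 to 35.9 RPKM in NS and 40.9 to 57.9 RPKM in 5dw (log2FC 0.61 in WT and 1.03 in Act). The substrates Irs1 (log2FC -1.24 and -0.88) and Irs2 (-0.67 and -0.94) and the exchange factors Sos1 (-0.60 and -0.46) and Sos2 (-1.34 and -1.24) fell in both genotypes. With median-ratio scaling and with quantile normalization Sos1 was not called in either genotype and Irs2 was not called in WT, and with quantile normalization Irs1 was not called in Act (-0.53, limma adjusted p = 0.0685). Sos1 also lost its call in Act without the Act NS library numbered 2 (-0.41), without that numbered 3 (-0.41), without the Act 5dw library numbered 3 (-0.27) and with only the groups compared in the fit (-0.46).

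In the PI3K and AKT branch, 2 of 22 tested genes were higher and 16 lower in WT, and 1 and 13 in Act, and with median-ratio scaling these counts were 4 and 7 in WT and 3 and 8 in Act. Among all genes, 9.45% were higher and 48.8% lower in WT and 9.04% and 36.5% in Act, and with median-ratio scaling 22.4% and 22.2% in WT and 19.9% and 20.8% in Act. Foxo1, a transcription factor held out of the nucleus by AKT, was 5.54 to 7.93 RPKM in NS and 0.951 to 1.26 RPKM in 5dw (log2FC -2.21 ± 0.15 in WT and -2.10 ± 0.16 in Act, limma adjusted p = 1.92e-06 and 9.49e-06). Pik3r1, a regulatory subunit of PI3K, had -1.96 and -1.86, and the kinase gene Gsk3a had -1.005 and -1.05. Pik3cb, a catalytic subunit gene, was 0.697 to 1.63 RPKM in NS and 0.077 to 0.201 RPKM in 5dw. It thus passed the filter through NS alone. Its log2FC of -1.28 and -1.35 depends on the pseudocount, with -2.31 and -2.46 at 0.1 and -0.84 and -0.89 at 1, and it was called at each. Pdk1 rose by 0.87 in WT and 1.12 in Act, but this symbol denotes pyruvate dehydrogenase kinase 1, an enzyme of glucose metabolism, and not the kinase upstream of AKT, whose gene is Pdpk1. It is thus no gene of this branch, and it was the 1 higher gene counted in Act and, with Foxo3, 1 of the 2 in WT, and also 1 of those counted higher with median-ratio scaling. Pdpk1 was called lower in both genotypes, and in neither with median-ratio scaling. Akt1, at 25.4 to 37.6 RPKM, was not called on the deposited scale (0.07 and 0.03) and was called higher in both genotypes with median-ratio scaling (0.52 and 0.39).

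**Figure D5:**
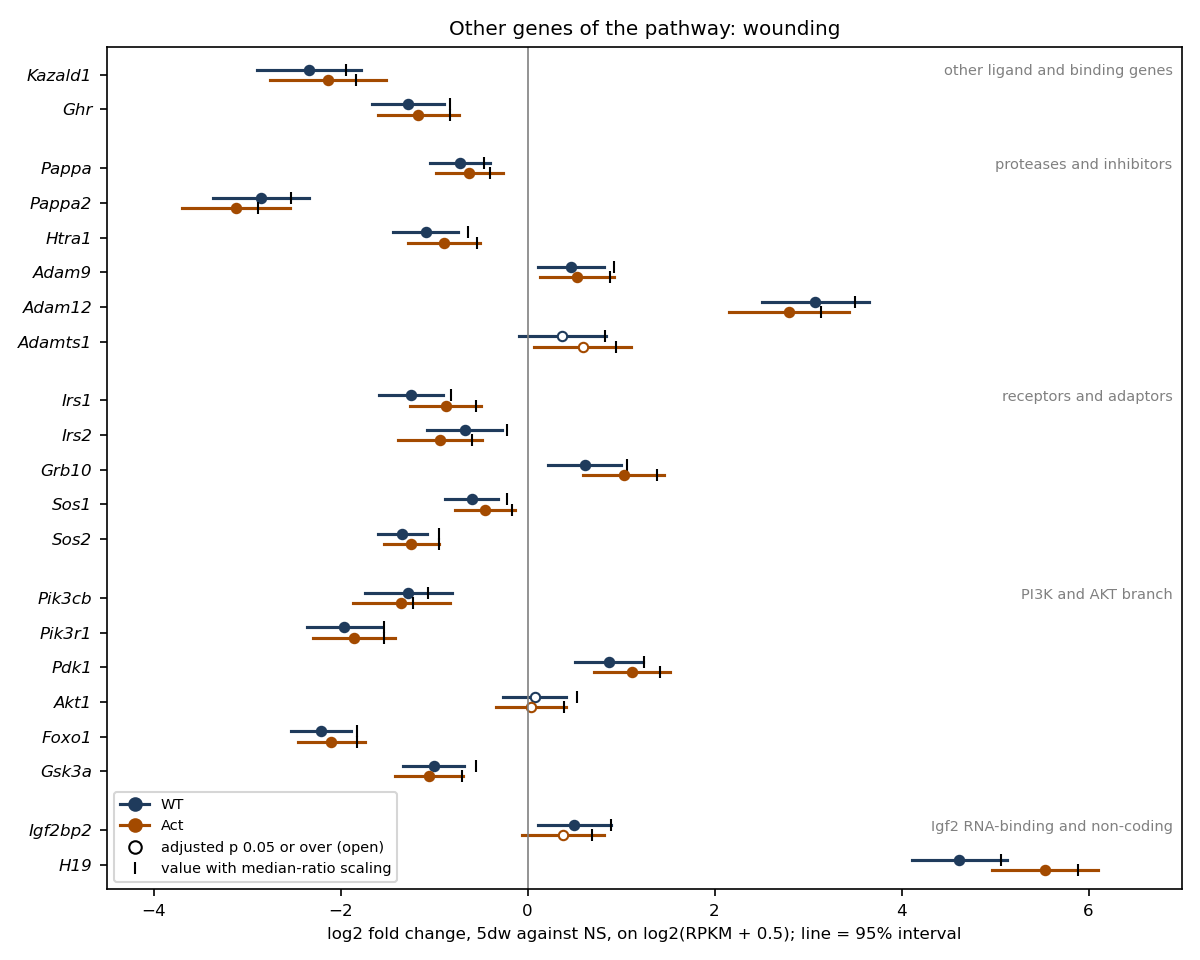
Log2FC of 5dw against NS for the named genes of the pathway that are not members, in WT and Act, with 95% intervals, filled where adjusted p was under 0.05, and the value with median-ratio scaling as a tick. H19 and Adam12 lie above 2.7 in both genotypes, Pappa2, Foxo1 and Kazald1 below -2.0, and the ticks of Sos1 (-0.22 and -0.16) lie near 0.

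H19, the non-coding RNA that shares an imprinted region with Igf2 and is expressed from the maternal allele, had the largest rise of all genes tested on these lists, in both genotypes. It lies on chromosome 7 at 142575529 to 142578143 (GENCODE M21, GRCm38, - strand), on the same strand as Igf2 at 142650766 to 142666816. H19 was 12.0, 9.36 and 9.04 RPKM in WT NS and 236, 309 and 237 RPKM in WT 5dw. Values in Act were 6.04, 9.89 and 12.5 RPKM in NS and 432 and 459 RPKM in 5dw. Wounds were thus more than 10 times above normal skin in both genotypes, and both Act wound libraries were above all WT wound libraries. The log2FC was 4.62 ± 0.23 in WT and 5.54 ± 0.26 in Act (limma adjusted p = 4.64e-07 and 1.02e-06), beside 0.21 and 0.75 for Igf2. Act against WT in 5dw was 0.78 (limma adjusted p = 1.00), and the interaction was 0.92 (limma adjusted p = 0.999). Igf2bp2, which encodes a protein that binds Igf2 mRNA, was 1.88 to 3.33 RPKM in NS and 3.49 to 3.98 RPKM in 5dw, and rose in WT (log2FC 0.50, limma adjusted p = 0.0313) but did not pass in Act (0.38). In Act it was called with median-ratio scaling (0.69, limma adjusted p = 0.00798) and with quantile normalization (0.78, limma adjusted p = 0.00526). Its WT call was lost with no filter on low values (0.50, limma adjusted p = 0.0653), and without either of the WT NS libraries numbered 1 and 3 or any 1 of the WT 5dw libraries, with log2FC of 0.44 to 0.52.

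Over the 11 libraries, the genes whose log2 values ran most closely with each member were found by Pearson correlation, as a description. The libraries split into NS and 5dw, so any gene that differs strongly with wounding correlates with any other, and 773 genes had r over 0.95 with Igfbp6, 525 with Igf1r, 446 with Igfbp2, 443 with Igfbp5, 324 with Igfbp3 and 50 with Igf2r. The nearest to Igf2r were Col5a2 (r = 0.98), Bgn (0.97) and Mmp13 (0.97), which encode a fibrillar collagen chain, a proteoglycan and a collagenase. Nearest to Igfbp5 were Clec3b, Qpct and Cpq (each 0.99), to Igfbp6 Tmem237, Swt1 and Cadm3 (each 0.99), to Igfbp3 Crybg3, Camk2n1 and Ccni (each 0.99), to Igfbp2 Rundc1, Sema4c and Ppp1r14a (0.99, 0.99 and 0.98), and to Igf1r Sncaip, Frmd7 and Cdh13 (each 0.99). For the members that were not called in WT wounds no gene had r over 0.95. Nearest to Igf1 were Zbtb8os, Prorsd1 and Tsn (0.94, 0.93 and 0.93), to Igf2 Wnt16, Mmp2 and Abcc9 (0.91, 0.86 and 0.86), to Igfbp4 Fam13c, Il10rb and Gpr135 (0.94, 0.93 and 0.90), and to Igfbp7 Rab31, Hes6 and Pde1b (0.88, 0.87 and 0.85).

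Among markers of other cell types, 10 of 14 keratinocyte genes were lower and 1 higher in WT wounds and 11 were lower in Act wounds, beside 48.8% and 36.5% of all genes lower, with none of the 14 at 0 in all libraries. The sum of 8 Schwann cell markers was 118 to 162 RPKM in NS and 48.3 to 55.9 RPKM in 5dw, and that of 8 adipocyte markers 68.4 to 128 and 46.0 to 69.8 RPKM. Of 6 Schwann cell markers tested, 5 were called lower and 1 higher in each genotype. The sum of 9 macrophage markers in the table was 12.8 to 20.5 RPKM in NS and 22.1 to 29.1 RPKM in 5dw, in cells sorted against CD11b and F4/80. It was led by Cd68 in NS and by Cd14 in 5dw. Of 4 macrophage markers tested, 2 were called higher and 0 lower in WT, and 1 and 1 in Act. Of all genes, 9.45% were higher in WT and 9.04% in Act. Skeletal muscle markers were at 3.30 to 7.18 and 2.16 to 2.97 RPKM. Sums of 8 endothelial and 8 pericyte markers overlapped between the tissues and that of 10 pan-immune markers did not. Pan-immune, endothelial and pericyte sums were 13.8 to 17.2, 22.6 to 39.3 and 57.4 to 115 RPKM in NS and 10.3 to 13.7, 22.2 to 29.3 and 68.0 to 114 RPKM in 5dw. These cells' part in the falls of Igfbp2, Igfbp3, Igfbp5 and Igfbp6 and in the rise of Igf2r was not tested.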

How the data were processed

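The authors aligned single poly-A reads of 100 bp to GRCm38 in CLC Genomics Workbench and deposited RPKM values per gene symbol. Their tests used edgeR, which was not run here. The treatment of shared or antisense reads was not given in the sources used here. RPKM was fitted as log2(RPKM + 0.5) with limma-trend (limma 3.58.1, R 4.3.3), with 1 mean per group over all 11 libraries and 7 residual degrees of freedom, with Benjamini-Hochberg adjustment of p over 11979 genes. Libraries pool animals, so p-values measure the spread between pools.

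Reads were recovered as whole numbers from RPKM, gene length and a mapped total (tolerance 0.03 reads), for 8 of the 10 members, all but Igf1r and Igf2r. Rounded reads served limma-voom as an alternative. 80.8 to 82.0% of low values came out whole. No 2 libraries of the same group were alike within sampling noise. The fit was also run on simulated data, and no call above rests on that run. Among the 8 members with recovered reads, depth (18649321 to 39702138 mapped reads) limits Igfbp2 and Igf2 most.

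Genes beside the members were named by a rule: per list up to 5 that passed in both genotypes in the same direction with the highest mean change, and the 2 with the highest mean RPKM. Alternatives were another pseudocount (0.1 or 1), filter (none or 5 RPKM), scaling, trend, weights, replicate block, groups fitted, and libraries left out. The members and lists were chosen with earlier results of these data known. Promoter windows came from RefSeq (GRCm38.p6), and coordinates and gene lengths from GENCODE M21.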

Additional observations from a re-analysis of the deposited data

Results flagged for a closer look

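Igf1r values lay in opposite directions between genotypes in the 2 tissues, and neither difference passed the test. All 3 Act NS libraries (5.22 to 5.47 RPKM) were above all 3 of WT NS (4.77 to 5.09 RPKM), and both Act 5dw libraries (3.08 and 3.13 RPKM) were below all 3 of WT 5dw (3.24 to 3.48 RPKM). The differences were small, and the interaction was a log2 difference of -0.18 (limma adjusted p = 0.999), so the pattern did not pass the test.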

How the results depend on the processing

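The falls of Igfbp2, Igfbp3, Igfbp5 and Igfbp6 and the rise of Igf2r kept their direction and their call under each alternative run, in both genotypes. Scaling mattered most for the counts. Members higher in WT wounds were 4 with median-ratio scaling, 2 with quantile normalization and 2 without both NS libraries numbered 1, against 1 on the deposited scale, where 22.4%, 20.4%, 9.63% and 9.45% of all genes were higher. Pathway genes lower were 14 and 13 in WT and 15 and 13 in Act with median-ratio scaling and quantile normalization (22.2% and 19.4% of all genes in WT, 20.8% and 17.2% in Act), and 15 in Act with a filter of 5 RPKM (36.4%), where fewer genes were tested (Igf2 was below it). Pathway genes higher in Act were 9 and 8 with these scalings (19.9% and 20.1% of all genes). Leaving out 1 library gave 1 to 3 members higher in Act (1 without the Act 5dw library numbered 1, beside 6.68% of all genes) and 4 to 7 pathway genes higher in WT (4 without the WT 5dw library numbered 1 or 3, beside 7.88% and 7.67% of all genes). With Igfbp7 left out of the sum, mean shares in NS became 4.57% for Igfbp4, 28.9% for Igfbp5 and 47.0% for Igfbp6, and in 5dw 0.185% for Igfbp2, 15.7% for Igfbp3, 19.03% for Igfbp4, 14.5% for Igfbp5 and 50.5% for Igfbp6, by construction.

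Signs turned for values that were not called. Wounding in WT gave 0.39 and 0.23 for Igf1 with median-ratio scaling and quantile normalization, and -0.23 to 0.14 when 1 library was left out. Akt1 was -0.056 to 0.18 in WT and -0.082 to 0.15 in Act when 1 library was left out, and in Act -0.024 with array weights and -0.060 without both NS libraries numbered 1. Between genotypes in NS, Igf2 was 0.022 with median-ratio scaling and 0.029 without both NS libraries numbered 1, and Igfbp7 was -0.12 with array weights. Between genotypes in 5dw, Igfbp7 was 0.0036 with median-ratio scaling and 0.025 with quantile normalization. The interaction was -0.031 for Igf2r without both NS libraries numbered 1, -0.16 for Igfbp3 and 0.072 for Igfbp7 with array weights, and -0.027 for Igfbp6 with median-ratio scaling. When 1 library was left out, Igf2 was -0.17 to 0.080, Igfbp3 -0.068 to 0.34 and Igfbp7 -0.15 to 0.19 between genotypes in NS. In 5dw, Igfbp4 was -0.071 to 0.092, Igfbp5 -0.60 to 0.71, Igfbp6 -0.27 to 0.069 and Igfbp7 -0.086 to 0.022. The interaction was -0.0011 to 0.20 for Igf2r, -0.14 to 0.27 for Igfbp3, -0.25 to 1.06 for Igfbp5, -0.097 to 0.24 for Igfbp6 and -0.23 to 0.12 for Igfbp7. Apart from scaling, the cause of these moves was not tested.

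Libraries share replicate numbers. Of 15 same-numbered pairs, 12 had deviations that correlated with r over 0.1 (range -0.12 to 0.55), and 9 of 11 libraries matched best with their own number, so the numbers did not pair every library. With the replicate number as a block, 1 member was higher and 5 lower in WT, and 3 and 5 in Act, as without it, beside 10.2% and 50.9% of all genes in WT and 9.75% and 38.0% in Act. Signs turned with the block for Akt1 in Act wounds (-0.012) and Igfbp2 between genotypes in 5dw (-0.068), and Adamts1 was called in Act (0.73, limma adjusted p = 0.00846, range over the alternatives 0.00509 to 0.255).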
